A study of Rattus norvegicus with 6 samples.

Results

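A set of 154 circRNAs, of 14145 carried by the array, was detected in the contused spinal cord of all 3 injured rats and in none of 3 sham-operated rats. These members were selected on detection alone. A spot counted as detected where the extraction software marked it as well above background and did not mark it as an outlier, and a circRNA belonged to the set when its spot was detected on each of the 3 SCI arrays and on no sham array. Detection, and with it every intensity of the same contrast, chose the members, so that their levels and their rise in the SCI group are given below as a description and without a test.

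The animals were female Sprague-Dawley rats, given as 11 weeks old in the labels, while the study's methods give a range around that age. Those of the sham control group (n = 3) underwent laminectomy only, and those of the SCI group (n = 3) laminectomy followed by a contusion from an impactor. The study's methods describe penicillin and emptying of the bladder by hand after the contusion, and do not say whether sham rats received them. A segment of cord that held the injury epicenter was frozen 3 days after surgery without perfusion first. The level of the segment in sham rats is not stated. RNA of each rat was digested with RNase R, labeled with Cy3 by random priming and hybridized to its own array. The tissue was taken whole, so that a change in the number of cells of a type and a change in the RNA held per cell cannot be told apart.

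CircRNAs are closed RNA loops that form when the end of an exon is joined back to the start of the same or an earlier exon. They have no free ends, which is why an exonuclease such as RNase R digests linear RNA and spares them, and many are abundant in neural tissue. In the first days after a contusion, neurons and oligodendrocytes are lost near the epicenter while microglia proliferate, astrocytes become reactive and macrophages enter from the blood. The files identify each circRNA by the maker's probe number and pair it with no circRNA name, host gene, position or sequence. No host gene can therefore be named, the tissue could not be set against its marker genes, and 2 members are given by number.

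The members were faint circRNAs that stood on either side of a fixed limit. On each array, the limit of detection lay at 5 units of background-subtracted intensity. The dimmest detected circRNA spots read 5.0 units, and the brightest undetected ones without an outlier mark read just below that. The median background-subtracted intensity of the members was 3.22, 2.26 and 3.33 units on the arrays of sham replicates 1, 2 and 3. It was 7.33, 8.25 and 11.0 units on those of SCI replicates 1, 2 and 3. All 3 injured rats thus stood above all 3 sham rats, by a few units, and SCI replicate 3 was the brightest.

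**Figure D1:**
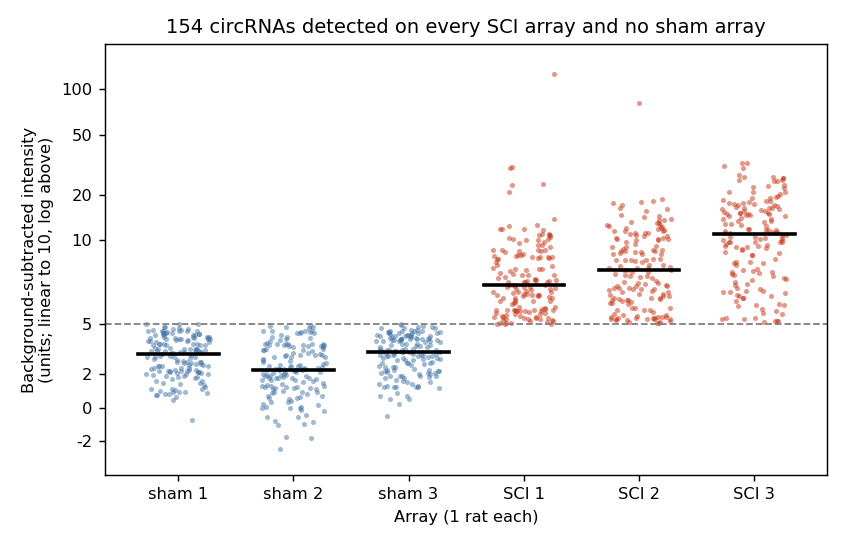
Background-subtracted intensity (units) of the 154 circRNAs on each array. Each point is 1 circRNA, black bars are medians (2.26 to 3.33 units in sham and 7.33 to 11.0 units in SCI), and the dashed line is the limit of detection at 5 units, which by choice of the members no sham point passes and every SCI point does.

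The label of the set as detected only after injury held for this limit and not for the presence of signal. In sham cords, 142, 121 and 147 of the 154 circRNAs had a signal that the software marked as positive and significant against the local background. A total of 110 members were so marked on all 3 sham arrays, 37 on 2, 6 on 1 and 1 on none. Of the 77 negative control spots on each array, between 0 and 2 were marked, and their median lay between -1.41 and -0.84 units on the 6 arrays. Most members were therefore measurable in sham cord at a level under the limit. When the same choice was made with the positive and significant mark in place of the stricter one, 37 circRNAs were found. Of the members, 1 lacked this mark on every sham array. For it, the background-subtracted intensity was 0.47, -1.76 and 0.55 units in sham replicates 1, 2 and 3. It was 7.26, 6.21 and 8.85 units in SCI replicates 1, 2 and 3, so that its dimmest injured rat read 5.66 units above its brightest sham rat.

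The distance between the groups was small for the greater part of the set. Over the members, the lowest SCI array exceeded the highest sham array by a median of 2.78 units, with quartiles of 1.62 and 4.54 units and a range from 0.29 to 22.5 units. The gap was under 1 unit for 18 members, under 2 units for 53 and at least 10 units for 3. The dimmest SCI array lay under 6 units for 68 members, and 10 members stood at 10 units or more in all 3 injured rats. The software also gives an error for each spot, with a median over the members of 13.5% to 16.9% of the processed signal on the SCI arrays and 31.7% to 45.3% on the sham arrays. The gap exceeded 2 combined errors of the spots it was measured between for 72 of the 154 members and 1 combined error for 123. The choice of members fixed this gap above 0, and these counts were not made over all tested circRNAs, so they stand without a background. On the uncorrected scale, the median spot intensity of the members was 21.0 to 22.0 units in sham and 25 to 30 units in SCI, over a local background of 14 units. The median over the members of the SCI to sham ratio of that intensity was 1.32, and it reached 2 for 2 members.

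The members closest to the limit lay within fractions of a unit of it. The dimmest signal of a member on an SCI array was 5.01 units and the brightest signal of a member on a sham array 4.997 units. Another 153 circRNAs were detected on 2 SCI arrays and no sham array, and on the remaining SCI array they had a median of 4.0 units and at most 5.0 units. A further 186 circRNAs were detected on all 3 SCI arrays and on 1 sham array, where their median signal was 6.20 units and the highest 8477 units.

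In the injured cord the members lay in the lower part of the circRNA distribution. After quantile normalization of the log2 intensities, a member's mean over the 3 SCI arrays had a median of 3.13, with quartiles of 2.86 and 3.5 and a range from 2.11 to 5.54, whereas the median over all 13279 tested circRNAs was 5.20. Of the members, 1 exceeded that median. Ranked among all circRNAs of the same array, the median member stood at the 18.4th, 12.0th and 20.6th percentile on the arrays of SCI replicates 1, 2 and 3, and at the 6.41th, 4.37th and 5.34th percentile on those of sham replicates 1, 2 and 3. The higher rank in SCI follows from the choice of the members, and nothing is read from it. The median log2 difference between SCI and sham over all tested circRNAs was -0.45 before normalization and 0.09 after it, and before normalization it was 1.81 for the members, from measured sham signals under the limit.

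The rise of each member can be given only as a lower bound, because its sham signal was not well above background. For each sham array the floor was the dimmest detected signal, or the circRNA's own signal where that was higher, and the bound is the mean SCI level over the mean of these values. The normalized floor was 2.31 to 2.45 on the sham arrays, and 25 members had a signal of their own above it on at least 1 sham array. The median bound was 1.68-fold, with quartiles of 1.38-fold and 2.15-fold. A bound of at least 2-fold was reached by 51 of the 154 members (33.1%), at least 3-fold by 10 and at least 4-fold by 3. The bound lay between 1-fold and 2-fold for 97 members, and for 6 members the normalized SCI mean was under the sham floor, so that no fold is given. With undetected signals raised to the floor in the same way, 13.8% of all tested circRNAs were at least 2-fold higher in SCI. As the members were chosen by this contrast, nothing is read from the difference between these shares. The count of members at 2-fold or more depended on where the floor was set and on how arrays were scaled: it was 10 with the floor at the 5th percentile of the detected signals, and 153 with each array scaled to its 75th percentile. The share over all tested circRNAs was not computed for these other settings, so both counts stand without a background.

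**Figure D2:**
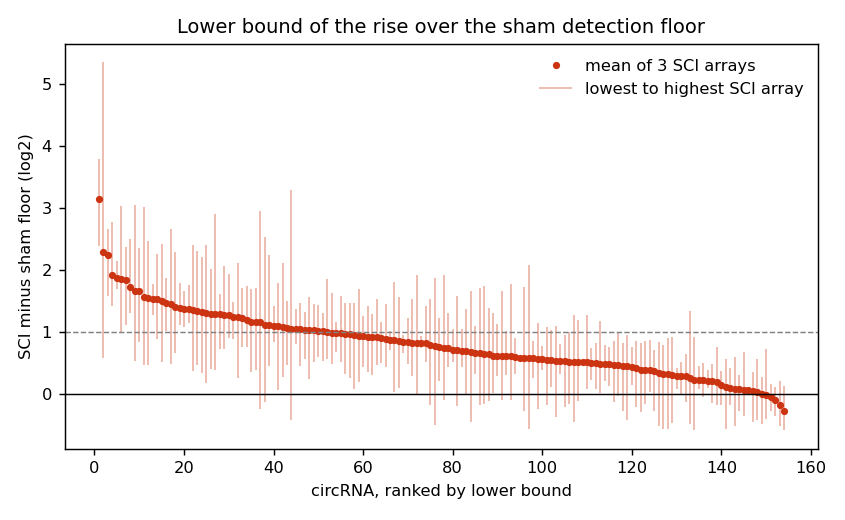
Lower bound of the rise of each of the 154 circRNAs, ranked, as the log2 difference between the normalized SCI level and the sham floor. Points are means of the 3 SCI arrays, vertical lines run from the lowest to the highest SCI array, the dashed line marks 2-fold (51 points on or above it), and 6 points lie under 0.

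The bounds also differed between the arrays of the injured rats. Taken by itself, SCI replicate 1 gave a bound of at least 2-fold for 65 members, SCI replicate 2 for 21 and SCI replicate 3 for 79. In 12 members the bound was at least 2-fold on each of the 3 SCI arrays by itself. Shares over all tested circRNAs were not computed for single arrays, so these counts stand without a background. By their place on the slide, SCI replicates 1 and 2 shared row 2, while SCI replicate 3 was in row 1 together with all sham arrays. The median bound was 1.84-fold with SCI replicate 1 alone, 1.26-fold with replicate 2 alone and 2.03-fold with replicate 3 alone. It was 1.68-fold with all 3 SCI arrays, and the 2 arrays of row 2 thus also differed from each other. The members were chosen with all 3 of these arrays. A block for the slide row was used only in the linear model given below, and the part of the row in these bounds was not tested.

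ASCRPR013001 had the largest bound. Its background-subtracted intensity was 0.96, 2.49 and 1.55 units in sham replicates 1, 2 and 3 and 29.99, 81.5 and 25 units in SCI replicates 1, 2 and 3. The 3 injured rats were far from the sham rats, and the gap of 22.5 units was the widest of the set. On the normalized log2 scale it measured 5.54 ± 0.71 (SD, n = 3) in SCI, and 0.90 ± 0.77 (SD, n = 3) in sham from signals under the limit, which placed it between the 44.3th and 70.7th percentile of the circRNAs on the SCI arrays. Its bound was 8.88-fold, and it lay between 7.30-fold (without SCI replicate 2) and 13.0-fold (without SCI replicate 3) when an array was left out. It was 5.23-fold with the lowest SCI array, that of replicate 3, in place of the mean, 5.97-fold with the floor at the 5th percentile of the detected signals and 14.6-fold with each array scaled to its 75th percentile.

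ASCRPR008088 had the second largest bound, 4.89-fold, which rested on a single rat. It measured 126 units in SCI replicate 1, but 12.4 and 9.88 units in replicates 2 and 3, and 0.87, 3.29 and 3.5 units in sham replicates 1, 2 and 3. Its brightest injured rat was thus 10.1 times as bright as the next. On the normalized log2 scale it measured 4.68 ± 2.66 (SD, n = 3) in SCI, the largest spread of any member, and 1.35 ± 1.05 (SD, n = 3) in sham. Its bound was 1.73-fold without SCI replicate 1, 7.99-fold without replicate 2 and 9.69-fold without replicate 3, and 1.49-fold with the lowest SCI array in place of the mean.

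The circRNAs ranked 3 and 5 by bound were more even than ASCRPR008088. The circRNA ranked 3 by bound read 21.0, 17.7 and 20.2 units in SCI replicates 1, 2 and 3 and 4.34, 1.15 and 4.997 units in sham replicates 1, 2 and 3. All its injured rats agreed within a few units, and its bound was 4.74-fold. Its normalized level was 4.89 ± 0.59 (SD, n = 3), a spread close to the median SD of 0.57 over the members. The circRNA ranked 5 had the smallest SD of normalized log2 values among the 10 with the largest bounds. It read 13.8, 18.9 and 18.5 units in SCI and 3.73, 1.79 and 3.70 units in sham. Its normalized level was 4.25 ± 0.24 (SD, n = 3) and its bound 3.64-fold. Of these 10 circRNAs, 6 were brightest in SCI replicate 3, 2 in replicate 1 and 2 in replicate 2 before normalization. Those ranked 6 and 9 were less even, with an SD of normalized log2 values of 1.05 and 1.27.

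**Figure D3:**
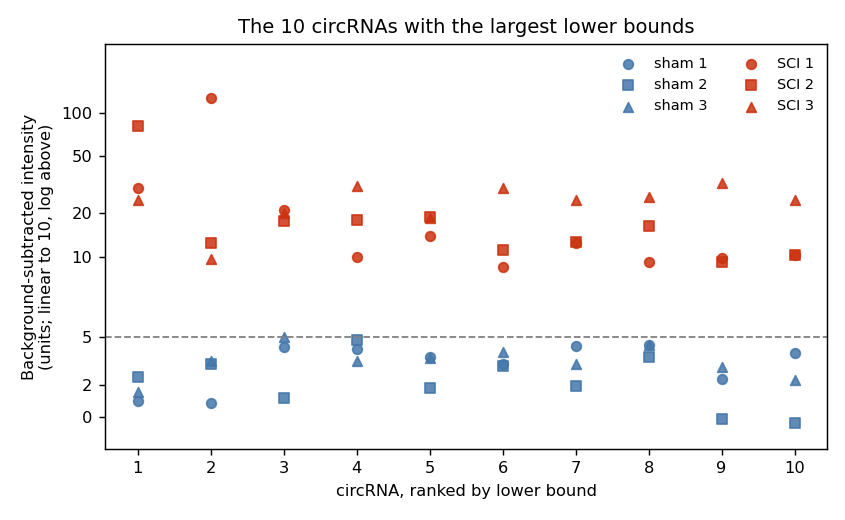
Background-subtracted intensity (units) of the 10 circRNAs with the largest lower bounds, on each of the 6 arrays. Blue symbols are sham rats, red symbols are SCI rats, and the dashed line is the limit of detection at 5 units. In the circRNA ranked 2 a single rat, SCI replicate 1 at 126 units, stood far above the others.

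A member from the middle of the ranking by bound differed strongly between the arrays of the injured rats. The circRNA ranked 78 read 1.27, 2.16 and 1.55 units in sham replicates 1, 2 and 3 and 5.97, 6.68 and 19.5 units in SCI replicates 1, 2 and 3. In 2 injured rats it lay close to the limit and in the other well above it. Its SD was 1.05 against a median of 0.57 over the members, and its bound, a mean over the 3 SCI arrays, was 1.67-fold. The normalized values were 2.81, 2.28 and 4.30 in SCI replicates 1, 2 and 3. The sham floor was 2.39, so replicate 2 lay under it. At the end of the ranking, the circRNA with the lowest SCI level read 5.16, 5.20 and 5.36 units in SCI and 2.09, 3.05 and 4.58 units in sham, a gap of 0.58 units between the groups. Its normalized level was 2.11 ± 0.37 (SD, n = 3) in SCI and 1.86 ± 0.36 (SD, n = 3) in sham, and no fold is given for it.

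The arrays of the injured rats differed from each other in many of these circRNAs. Each rat had 1 array, so a difference between rats and a difference between arrays cannot be told apart. The SD between the 3 SCI arrays had a median over the members of 0.57 log2 units, with quartiles of 0.37 and 0.77. It was under 0.25 for 14 members and at least 1 for 18, and the highest and lowest SCI array differed by at least 2-fold in 89 of the 154. Among circRNAs detected on all 6 arrays, 644 had an SCI level between the quartiles of the members, and their median SD was 0.50 (quartiles 0.35 and 0.70). The 76 members between the same quartiles had a median SD of 0.57. The choice of members, which required detection in every injured rat, bears on this spread, and the difference was not tested.

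**Figure D4:**
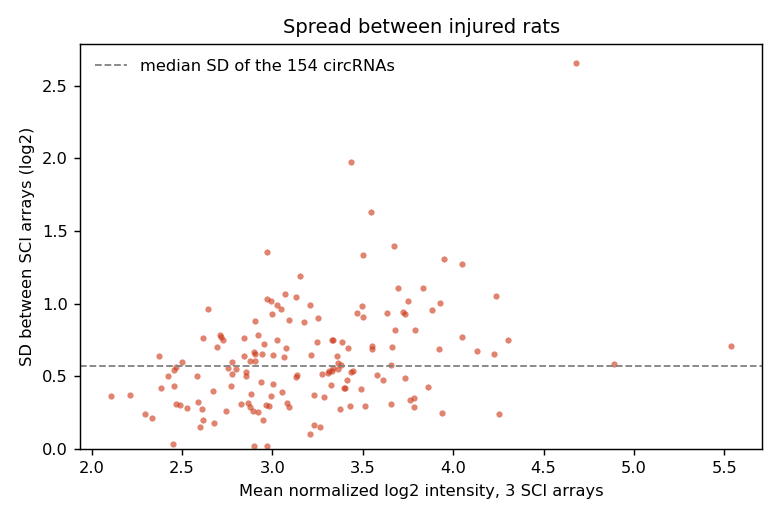
Standard deviation between the 3 SCI arrays against their mean, both as normalized log2 intensity, for the 154 circRNAs. The dashed line is the median SD of 0.57, and the highest point, at 2.66, is ASCRPR008088.

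The arrays of the injured rats did not contribute equally. Normalized levels were highest in SCI replicate 3 for 85 members, in replicate 1 for 61 and in replicate 2 for 8, and replicate 2 was the lowest for 115. Before normalization, replicate 3 was the brightest for 107 members, replicate 2 for 32 and replicate 1 for 15, and replicate 1 was the dimmest for 81. The place of SCI replicates 1 and 2 thus turned with the scaling, while replicate 3 led on both scales. The arrays themselves differed in brightness: the median spot intensity over all circRNAs was 37.5, 57.0 and 45.0 units in SCI replicates 1, 2 and 3 and 54.5, 69.0 and 57.0 units in sham replicates 1, 2 and 3, and SCI replicate 1 had the smallest share of detected circRNAs (88.8%) and SCI replicate 2 the largest (93.9%). Across the 154 members, normalized levels correlated between SCI replicates 1 and 2 with a Pearson r of 0.46, between replicates 1 and 3 with 0.24 and between replicates 2 and 3 with 0.31, and these values share the narrow range of level that the limit imposes.

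Quantile normalization changed which members separated the groups. Before it, all 154 members were higher on every SCI array than on every sham array, as their choice requires. After it, 129 of the 154 did not overlap and 25 did, against 21.4% of all tested circRNAs in which every SCI array exceeded every sham array. In the linear model of limma, with the threshold set at a log2 difference of 1 and an unadjusted p of 0.05, 121 of the 154 members were called higher in SCI, where 14.1% of all tested circRNAs were so called. The members entered this fit only through the arrays that chose them, and the fit took their sham signals under the limit at face value, so the count is no evidence of a rise. With the uncorrected median spot intensity in the same model 1 of the 154 members was called, where 4.69% of all tested circRNAs were called higher. That intensity keeps the local background, which shrinks the log2 differences of spots as faint as the members. Its SCI to sham ratio reached 2 for 2 members, so nothing is read from this count.

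The excess of circRNAs that appeared over those that disappeared depended on the limit. At 5 units, 154 circRNAs were above the limit on every SCI array and no sham array, and 53 had the opposite pattern. With other limits, tried after the data were seen, these numbers were 102 and 16 at 3 units, 187 and 121 at 8 units and 173 and 156 at 10 units. From 15 units up the order turned, with 133 against 269 at 15 units, 71 against 466 at 30 units and 21 against 498 at 100 units. On the quantile-normalized scale the opposite pattern was the more frequent at each of the 9 limits tried, with 93 against 147 at a log2 intensity of 2.5, 150 against 195 at 3 and 273 against 427 at 5. The SCI pattern was thus the more frequent from 3 to 10 units on the unnormalized arrays, and not from 15 units up or on the normalized scale.

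**Figure D5:**
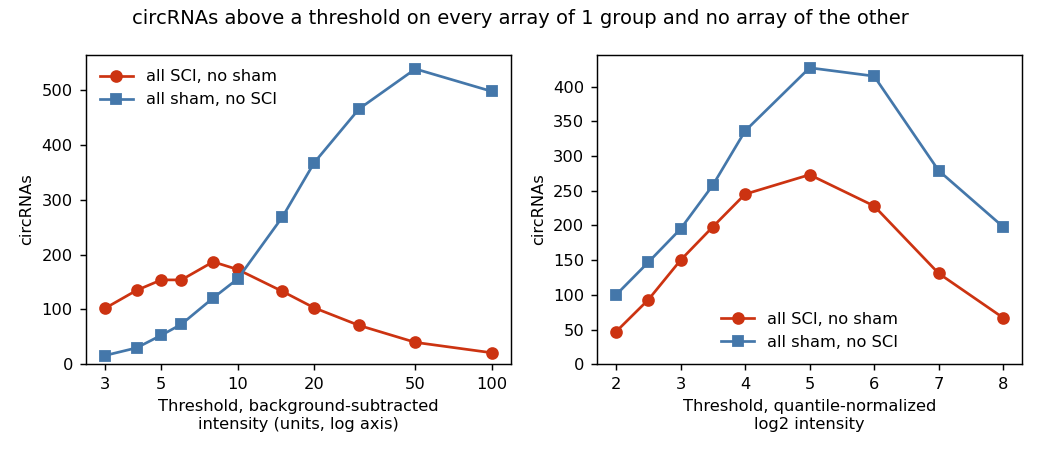
Number of circRNAs above a threshold on every array of 1 group and on no array of the other, against that threshold, for background-subtracted intensity in units (left, log axis) and quantile-normalized log2 intensity (right). The SCI pattern (red) is the more frequent up to 10 units on the left, and the sham pattern (blue) from 15 units and at every threshold on the right.

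Some readouts of the spots were not used in the choice. The local background had a median of 14 units around the members and around all circRNA spots on every array. Its pixel SD was 3.60 to 3.89 units for the members and 3.63 to 3.78 for all. The negative control spots had medians of -1.41, -1.14 and -0.99 units in sham replicates 1, 2 and 3 and -1.08, -0.84 and -1.16 units in SCI replicates 1, 2 and 3. These medians spread over less than 1 unit and did not part the groups. The highest negative control did, at 3.23, 3.81 and 5.05 units in sham replicates 1, 2 and 3. It read 0.74, 0.57 and 2.09 units in SCI replicates 1, 2 and 3. In sham replicate 3, 1 negative control was marked as well above background. The width of the members' spots had a median of 54.4 to 55.0 on the sham arrays, close to that of undetected circRNA spots, and of 46.5 to 49.2 on the SCI arrays, where all circRNA spots had 46.9. Undetected spots were wider on every array, with medians of 54.4 to 55.9. Width thus went with detection, which chose the members, and nothing is read from it. The members lay in all parts of the array, with 51, 38, 28 and 37 in successive bands of columns, 4 of equal width, and 37, 34, 43 and 40 in such bands of rows. These were 1.41%, 1.095%, 0.81% and 1.03% of the circRNA spots in the bands of columns. In the bands of rows they were 1.05%, 0.96%, 1.21% and 1.13%. No member had an outlier mark on a sham array, and on the SCI arrays the choice of members itself required this. In the maker's numbering 1 pair of members had consecutive numbers. Over 12488 pairs of tested circRNAs with consecutive numbers, the log2 differences between SCI and sham correlated at 0.02. The 283 tested circRNAs numbered next to a member had a median normalized log2 difference of 0.21, where that over all tested circRNAs was 0.09. This difference was not tested.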

How the data were processed

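The authors deposited, for each array, the spot intensities given by Agilent Feature Extraction version 11.0.1.1, before and after background correction, on a linear scale and without normalization between arrays, with marks for outlier, saturated and detected spots. No spot was saturated. The study's methods state quantile normalization in limma, low intensity filtering and a t-test. Here, log2 background-corrected intensities of all spots that are not controls were quantile-normalized with outlier spots left out (limma version 3.58.1, R version 4.3.3). The 13279 circRNAs detected on at least 3 arrays were fitted in limma, which was tested on simulated data. Each rat is 1 replicate, and precision is limited by there being 3 arrays in a group. All arrays came from 1 scan. Signals close to background are partly replaced by the extraction software with a value derived from the spot's error, and 1, 14 and 1 members were not above 0 on the sham arrays before that step.

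The members, lists and tests were chosen with earlier results of these data known. By the rule for named members, 2 were given by number, those with the largest bound, since nothing pairs probes with names. Members described by rank were picked after their values were seen.

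Alternatives were 4 other scalings, the median spot intensity, other floors, filters, tests and blocks, and each array left out in turn. The other limits of detection, the filter of 2 arrays where an SCI array was left out, and SCI replicate 3 alone were chosen after seeing the data.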

Additional observations from a re-analysis of the deposited data

Results flagged for a closer look

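Besides the circRNA probes and controls, the array carries 82 probes whose targets the files do not give, and 46 of them were detected in most of their spots on at least 3 arrays. Before normalization, 33 of the 46 were higher in SCI by the mean, and their median log2 difference was 0.74. They stood out against the tested circRNAs, whose median on the same scale was -0.45. These probes were not fitted in the comparisons of circRNAs, but they entered the quantile normalization of all spots that are not controls. With circRNA probes alone in that normalization, 62 members had a bound of at least 2-fold and 130 were called higher by limma. No share over all tested circRNAs was computed for that setting. The part of these probes' rise in that of the members was not tested.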

How the results depend on the processing

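The number of circRNAs that met the rule, 154, was 37 with the positive and significant mark, and between 164 (without SCI replicate 3) and 246 (without SCI replicate 1) when an array was left out, since fewer arrays then had to meet it. The median SCI level of 3.13 was 3.57 with each array scaled to its 75th percentile and 4.79 with the median spot intensity, which keeps the background, and 3.01 to 3.34 with an SCI array left out. The median SD between SCI arrays of 0.57 was 0.38 with cyclic loess and 0.20 with the median spot intensity, and 0.41 (without SCI replicate 2) to 0.66 (without SCI replicate 1) with an SCI array left out. The median bound of 0.75 on the log2 scale was 1.78 with the 75th percentile, 0.17 with the sham floor at the 5th percentile of detected signals and 0.22 with the lowest SCI array in place of the mean, and 0.69 to 1.01 with an array left out. The 51 members with a bound of at least 2-fold were 153 with the 75th percentile, 32 with cyclic loess, 33 and 10 with the floor at the 1st and 5th percentile, 12 with the lowest SCI array, 79 with SCI replicate 3 alone, and 33 (without SCI replicate 3) to 78 (without SCI replicate 2) with an array left out. The 121 members called by limma were 1 with the median spot intensity, 86 with the methods' t-test, 111 with the slide row as a block, and 99 to 131 with an array left out. Apart from the floors and the arrays left out, the cause of these shifts was not tested. Except with the median spot intensity, no share over all tested circRNAs was computed for the other settings. The counts of members under those settings therefore stand without a background. The labels do not say that rats with the same replicate number were paired. Deviations from the group mean correlated between them at 0.06, 0.41 and 0.25 for replicates 1, 2 and 3. Sham replicate 2 and SCI replicate 2 were both in slide column 1, and the cause of these correlations was not tested. A replicate block gave 121 calls as well. A block for the scan was not run, since there was 1 scan. The members' closeness to the detection limit bounds all of these values, since a shift of a few units decides membership.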
